A study of Mus musculus with 32 samples.

Results

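The genes described here are 10 members of the integrated stress response: Atf4, Atf5, Ddit3, Trib3, Chac1, Asns, Sesn2, Ppp1r15a, Fgf21 and Gdf15. They were chosen by symbol, each symbol was matched to its Ensembl identifier in GENCODE M21, and all 10 are among the 25059 genes counted in the RNA-seq files. The mice were C57BL/6J females of 6 to 7 months, and kidney, liver, lung and spleen were studied. One group received an intraperitoneal injection of cisplatin at 10 mg per kg and the other received saline. The time field of the labels gives 2 h after injection, whereas the labelled protocol, with injection at ZT1 and collection at ZT5, and the methods of the study give 4 h. RNA-seq covered 16 libraries, 2 control and 2 cisplatin libraries per organ. According to a correction notice in the series record, the control and cisplatin labels of the 8 lung and spleen RNA-seq libraries were exchanged after deposit. The corrected labels are used here, and with the earlier labels every RNA direction in lung and spleen would be the opposite. Damage-seq and XR-seq covered 8 libraries each, all of them after cisplatin and 2 per organ, so that damage and repair have no untreated counterpart here. Whole organs were used, so that fewer cells of a type and less RNA per cell cannot be told apart.

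In the integrated stress response, kinases that sense unfolded protein, lack of amino acids or other stress phosphorylate the translation initiation factor eIF2. General protein synthesis then falls, while the mRNA of a few regulators, with Atf4 as the best known, is translated more. The transcription factor ATF4 pairs with other leucine zipper proteins, binds CARE elements (composites of a partial C/EBP site and a partial ATF site) and raises genes for amino acid supply, redox balance and, under lasting stress, cell death. Some of its targets, Sesn2 and Gdf15 among them, are also known as targets of p53, the factor activated by DNA damage. Cisplatin forms adducts mainly at neighbouring guanines (GG). Damage-seq reads mark adducts still present in the DNA, and XR-seq reads are the short oligomers released by nucleotide excision repair. Each adduct is on the transcribed strand (TS) or the non-transcribed strand (NTS) of a gene, and RNA polymerase stalled at an adduct on the TS recruits transcription-coupled repair.

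The promoters of the members are shown first because ATF4 acts through short elements of this kind. RefSeq promoters of GRCm38.p6 were found for all 10 members. The window searched ran from 250 bases before the RefSeq start to 50 bases after it, and each motif was searched on both strands. The CARE consensus TGATGNAA was found in 4 of the 10 members, Chac1, Trib3, Asns and Fgf21, and in 3.97% of all 32851 promoters in the table. The full cAMP response element TGACGTCA was found in 1 member, Ppp1r15a, and in 1.79% of all promoters. The AP-1 motif TGANTCA was found in 1 member, Ddit3, and in 7.81% of all promoters. None of the members called in kidney RNA (Atf4, Ddit3, Ppp1r15a and Gdf15) was among those with the CARE consensus. A match describes the letters of the window and is not evidence of binding. The 250 bases before the start are given below, 5′ to 3′ in the direction of the gene, for the 4 members that rose in kidney and for Fgf21, with the letters of a motif in capitals. They lie at chr15:80254934-80255183 (+) for Atf4, chr10:127290543-127290792 (+) for Ddit3, chr7:45526269-45526518 (-) for Ppp1r15a, chr8:70632457-70632706 (-) for Gdf15 and chr7:45615491-45615740 (-) for Fgf21.
Atf4: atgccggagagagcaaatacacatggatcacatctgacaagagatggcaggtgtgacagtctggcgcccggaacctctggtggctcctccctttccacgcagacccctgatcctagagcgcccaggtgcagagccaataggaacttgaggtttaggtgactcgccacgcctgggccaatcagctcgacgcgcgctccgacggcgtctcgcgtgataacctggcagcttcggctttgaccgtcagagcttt
Ddit3: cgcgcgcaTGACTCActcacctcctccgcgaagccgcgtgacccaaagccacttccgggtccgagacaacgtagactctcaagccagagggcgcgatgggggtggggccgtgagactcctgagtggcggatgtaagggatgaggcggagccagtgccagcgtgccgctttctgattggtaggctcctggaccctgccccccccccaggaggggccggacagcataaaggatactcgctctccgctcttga
Ppp1r15a: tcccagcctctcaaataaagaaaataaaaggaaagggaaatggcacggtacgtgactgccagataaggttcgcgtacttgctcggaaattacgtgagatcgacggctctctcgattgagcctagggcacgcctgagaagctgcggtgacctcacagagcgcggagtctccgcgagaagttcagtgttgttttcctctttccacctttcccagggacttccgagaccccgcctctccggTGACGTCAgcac
Gdf15: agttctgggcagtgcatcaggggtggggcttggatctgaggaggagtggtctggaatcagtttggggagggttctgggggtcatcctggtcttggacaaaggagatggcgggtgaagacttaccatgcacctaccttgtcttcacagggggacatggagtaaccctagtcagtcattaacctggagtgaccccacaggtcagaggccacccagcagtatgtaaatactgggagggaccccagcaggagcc
Fgf21: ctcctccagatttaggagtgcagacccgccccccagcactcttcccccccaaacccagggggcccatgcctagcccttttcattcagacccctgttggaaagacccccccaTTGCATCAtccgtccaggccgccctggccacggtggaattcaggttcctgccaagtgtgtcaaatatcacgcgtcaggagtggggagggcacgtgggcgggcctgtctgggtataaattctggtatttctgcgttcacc

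The CARE match of Fgf21 is on the strand opposite to the gene and spans bases -139 to -132 from the start. The other 3 matches are given with 10 bases on either side, at chr2:119351039-119351066 (+) for Chac1, chr2:152344029-152344056 (-) for Trib3 and chr6:7693215-7693242 (-) for Asns. The match of Chac1 begins at base -193, that of Asns at base -23, and that of Trib3 at base 15 after the start.
Chac1: ttccctgccgTTGCATCActcctgccag
Trib3: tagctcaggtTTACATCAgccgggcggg
Asns: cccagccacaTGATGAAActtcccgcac

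The libraries differed in depth and in some features that bear on these genes. Reads on genes per library ranged from 15619474 to 162270280 in RNA-seq, from 10658675 to 59779770 in XR-seq and from 1571167 to 6441367 in Damage-seq. Replicates were compared by a dispersion index, the chi-square statistic divided by its degrees of freedom, which is near 1 for repeated sampling of one library. This index was 2.75 for the 2 lung controls and 2.98 for the 2 spleen controls, against 39.3 to 349 for the other 6 pairs of RNA-seq libraries. The 2 controls of lung and of spleen, nearly as alike as repeated samplings of one library, were therefore summed and counted as 1 sample per organ. Each organ carried its own markers, with a summed level (reads per kilobase of exon and per 1000000 reads, RPKM) of 13200 to 20400 for kidney tubule genes in kidney, 65400 to 150000 for hepatocyte genes in liver, 83100 to 101000 for lung epithelium genes in lung and 953 to 1100 for B cell genes in spleen. All 15 pancreatic acinar markers were detected in both cisplatin spleen libraries, where they summed to 1840 and 1430 RPKM, and they summed to 6.45 and 6.32 RPKM in the spleen controls, with 6 and 4 of them at 0 reads. B cell markers summed to 37.5 and 27.6 RPKM in cisplatin lung and to 114 and 120 RPKM in control lung, with none of the 6 at 0 reads in any lung library.

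In kidney, Gdf15, Ppp1r15a, Ddit3 and Atf4 rose after cisplatin. Levels of RNA are in RPKM, changes are log2 fold changes with their standard error (SE) from edgeR, and a gene was called when its change exceeded 0.4 on the log2 scale at an adjusted p under 0.05. Of the 9 members tested, 4 were called higher and 0 lower, beside 2.4% of the 15471 genes tested that were called higher and 2.65% called lower. All 9 had a change above 0, with a median of 1.59 on the log2 scale against 0 over all genes tested. In all 9 both cisplatin libraries lay above both controls, beside 27.8% of all genes tested. Fgf21 had too few reads to be tested in kidney, with 2 and 0 reads in the controls and 0 and 4 reads after cisplatin. A library with 0 reads allows up to 0.056 RPKM in the control and up to 0.19 RPKM in the cisplatin library, taking 3 reads as the limit.

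Gdf15, a secreted cytokine that reduces food intake through its receptor GFRAL in the hindbrain, changed most. It stood at 3.64 and 3.24 RPKM in the kidney controls and at 103 and 142 RPKM after cisplatin. Both treated libraries were far above both controls, a change of 5.15 ± 0.25 on the log2 scale, or 35.6-fold, with an edgeR adjusted p of 0.00193. Atf4, the central transcription factor of the response, stood at 43.6 and 33.2 RPKM in the controls and at 134 and 122 RPKM after cisplatin. Its change was 1.73 ± 0.21, or 3.33-fold, with an adjusted p of 0.0162 by edgeR, which became 0.0904 without the first cisplatin library of kidney. Both treated libraries lay above both controls.

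Ddit3 encodes CHOP, a transcription factor downstream of ATF4 that is linked to cell death under lasting stress. Its kidney levels were 6.76 and 5.61 RPKM in the controls and 29.9 and 30.1 RPKM after cisplatin. The change was 2.28 ± 0.20, or 4.85-fold, with an edgeR adjusted p of 0.007. Ppp1r15a encodes GADD34, the phosphatase subunit that removes the phosphate from eIF2 and so closes the feedback loop. It rose from 3.76 and 6.63 RPKM to 27.5 and 29.7 RPKM, a change of 2.46 ± 0.28, or 5.49-fold, with an edgeR adjusted p of 0.0142. For both genes the lowest treated library was above the highest control by a wide margin.

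The other 5 members tested in kidney did not pass with the default filter. Without a filter on low counts Trib3 and Sesn2 also passed, with edgeR adjusted p-values of 0.00955 and 0.00285, which made 6 members. In that fit 1896 genes in all were called, against 782 with the filter. Trib3, a pseudokinase that binds ATF4 and restrains it, had 0.537 and 0.876 RPKM in the controls and 1.62 and 2.66 RPKM after cisplatin, and its change of 1.59 ± 0.42 had an edgeR adjusted p of 0.114. Sesn2, a leucine-binding inhibitor of mTORC1 signalling, had 12.4 and 20.8 RPKM in the controls and 31.5 and 40.6 RPKM after cisplatin, and its change of 1.12 ± 0.27 had an edgeR adjusted p of 0.113. Atf5, a leucine zipper factor related to ATF4, had a change of 0.81 ± 0.25. Without the second control library of kidney, the log2 changes of Trib3, Sesn2 and Atf5 were 1.99, 1.52 and 1.14. Without the first control library they were 1.31, 0.80 and 0.53. Chac1, an enzyme that degrades glutathione, and Asns, which makes asparagine, had changes of 0.67 ± 0.44 and 0.30 ± 0.21 with adjusted p-values of 0.627 and 0.843 in edgeR.

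**Figure D1:**
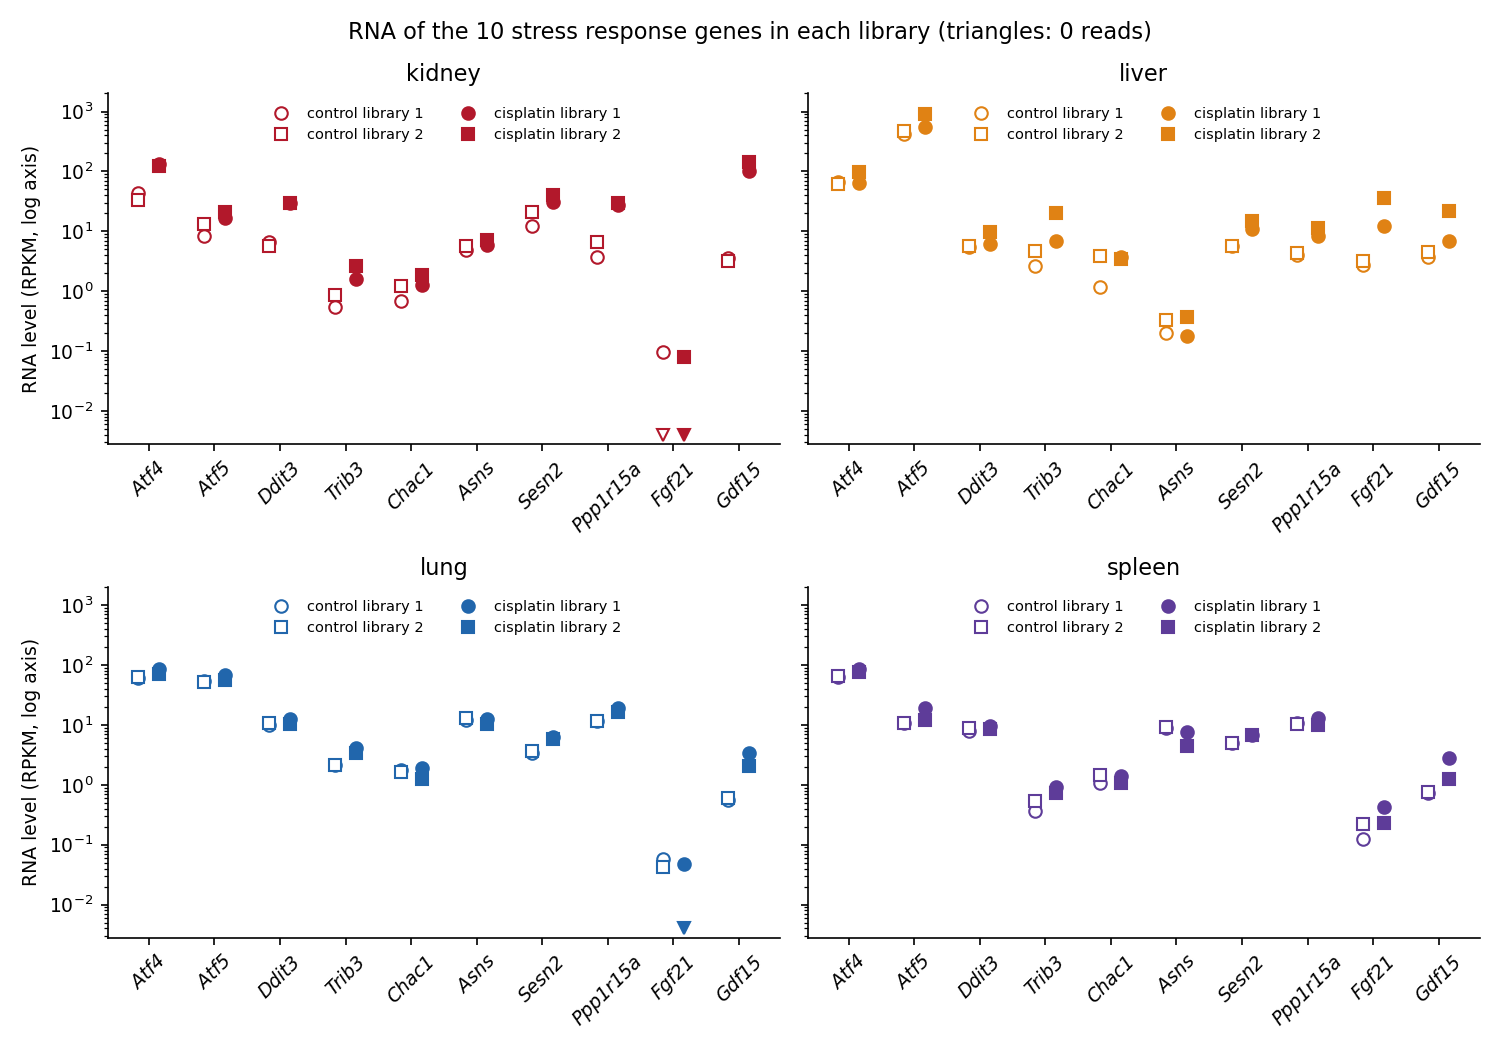
RNA level in RPKM (log axis) of the 10 genes in every RNA-seq library of the 4 organs, with controls open, cisplatin filled and triangles for libraries with 0 reads. Gdf15 in kidney stands at 3.24 and 3.64 RPKM in the controls and at 103 and 142 RPKM after cisplatin, and Fgf21 is above 2 RPKM in liver libraries only.

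Other genes of the pathway were counted by list in the same kidney fit, where 2.4% of all genes tested were called higher. The lists were chosen with earlier results of these data known, so that their counts only describe the genes listed. Among 18 other ATF4 target and partner genes, 8 were called higher and 0 lower, with a median log2 change of 1. Atf3, a partner and repressor in the same network, rose from a mean of 1.16 to 87.2 RPKM, a change of 6.18 ± 0.33 with an edgeR adjusted p of 0.00229. Cdkn1a, which encodes the cell cycle inhibitor p21 and serves here as a check of treatment, changed by 4.33 ± 0.39 with an edgeR adjusted p of 0.00718. Gadd45a, a DNA damage response gene, changed by 3.09 ± 0.18, and Trib1, a relative of Trib3, by 2.37 ± 0.26. The members of this list that were called also included Cebpb, Sqstm1, Ddit4 and Nfe2l2. Without the first cisplatin library of kidney 4 genes of the list were called higher, beside 0.581% of all genes.

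The list of 16 p53 targets also had 8 genes called higher and 0 lower in kidney, with a median change of 1.25 on the log2 scale. Cdkn1a and Bbc3 are in both lists, and Bbc3 was not called. With one cisplatin library of kidney left out, 3 p53 targets (without the first, beside 0.581% of all genes) or 5 (without the second, beside 1.84%) were called higher. The p53 target with the greatest change was Plk3, a stress-responsive kinase, at 6.72 ± 0.22, followed by Cdkn1a, by the antiproliferative gene Btg2 at 2.96 ± 0.18 and by Mdm2, the ubiquitin ligase of p53, at 1.87 ± 0.27.

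The parts of the response upstream of ATF4 and its metabolic branch gave fewer calls in kidney. Of the 16 genes for eIF2, its exchange factor, its kinases and related factors, 1 was called higher, Ppp1r15b, with a change of 1.23 ± 0.18. Ppp1r15b encodes the constitutive alternative to GADD34 as a subunit of the eIF2 phosphatase. No gene for eIF2 itself, its exchange factor or its kinases was called. Of 18 tested genes for amino acid synthesis and transport, 1 was called higher, the glutamine transporter Slc38a2, with a change of 2.18 ± 0.29, and the list had a median of 0.14. Without the first control library of kidney 5 of the eIF2 genes were called higher, beside 5.59% of all genes, and without the second control library 4 of the amino acid genes, beside 4.54%. None of the 12 aminoacyl-tRNA synthetases passed. Of the 17 genes tested for the unfolded protein response under XBP1 and ATF6, 1 was called higher, the chaperone gene Dnajb9, with a change of 2.55 ± 0.17. That list had a median of -0.10, and the major chaperone Hspa5 in it had a change of 0.49 ± 0.19 with an edgeR adjusted p of 0.507.

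In liver, no member was called, although 5 had an unadjusted p under 0.05, and edgeR called 0 of the 13868 genes tested (0% of genes), while 1287 genes, or 9.28%, had an unadjusted p under 0.05. DESeq2 called 188 genes in liver and 1 member, Fgf21. All 10 members had a change above 0, with a median of 0.96 on the log2 scale against 0.03 over all genes tested, and in 7 of them both cisplatin libraries lay above both controls, beside 18.4% of all genes tested. Fgf21, a hormone that the liver secretes in fasting and stress, stood at 2.77 and 3.16 RPKM in the controls and at 12.1 and 36.6 RPKM after cisplatin. Both treated libraries were above both controls but they differed from each other by more than the controls did. The change was 3.06 ± 0.58, or 8.32-fold, with an adjusted p of 0.132 in edgeR and of 0.000539 in DESeq2. Without the second cisplatin library of liver it was 2.03 on the log2 scale.

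Trib3 had the next change in liver, from 2.66 and 4.78 RPKM in the controls to 7.0 and 20.2 RPKM, which gave 1.89 ± 0.58 with an edgeR adjusted p of 0.359. Gdf15 stood at 3.81 and 4.47 RPKM in the liver controls and at 7.01 and 21.8 RPKM after cisplatin, a change of 1.82 ± 0.55 with the same edgeR adjusted p of 0.359. In Fgf21, Trib3 and Gdf15 the second cisplatin library was the higher of the pair, and without it the log2 changes of Trib3 and Gdf15 were 0.92 and 0.77. Ppp1r15a went from 4.02 and 4.42 to 8.27 and 11.2 RPKM and Sesn2 from 5.73 and 5.74 to 10.9 and 15.2 RPKM, with changes of 1.23 ± 0.34 and 1.21 ± 0.33 and edgeR adjusted p-values of 0.351 and 0.349. Without the first cisplatin library of liver, the log2 changes of Fgf21, Trib3, Gdf15, Ppp1r15a and Sesn2 were 3.62, 2.44, 2.39, 1.41 and 1.4. Without the second cisplatin library those of Ppp1r15a and Sesn2 were 0.98 and 0.94. Without the first control library of liver, the changes of Fgf21, Trib3 and Gdf15 were 2.94, 1.51 and 1.69. Without the second control library they were 3.16, 2.38 and 1.94. Hepatocyte markers summed to 65400 and 130000 RPKM in the controls and to 90900 and 150000 RPKM after cisplatin, and their part in these differences was not tested.

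The remaining members had smaller values in liver. Atf5 had its highest level in this organ, at 429 and 472 RPKM in the controls and 551 and 898 RPKM after cisplatin, with a change of 0.70 ± 0.43. Atf4, at 66.7 and 60.8 RPKM against 64.9 and 96.6 RPKM, overlapped between the groups. Asns had its lowest level in liver, between 0.181 and 0.379 RPKM in the 4 libraries. No gene of the 6 lists was called in liver with all libraries. Without the first cisplatin library of liver, where 3.87% of all genes were called higher and 9% lower, 4 of the other ATF4 targets were called higher and 1 lower, 4 of the p53 targets higher and 0 lower, and 2 of the eIF2 genes higher and 1 lower. In that fit 1 of the amino acid genes and 2 of the XBP1 and ATF6 list were called lower. With all libraries, the 18 other ATF4 targets and partners had a median change of 0.89 in liver. In the same fit of all libraries the 17 genes of the XBP1 and ATF6 list each had a change of 0 or below, with a median of -0.34.

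In lung and spleen no member was called by edgeR or by DESeq2, beside 0% of genes called higher and 0.406% lower by edgeR in lung and 0.136% higher and 0.0283% lower in spleen. At an unadjusted p under 0.05 there were 1 member in lung, Gdf15, beside 7.51% of all genes, and 0 in spleen, beside 2.96%. In lung 7 of the 9 members tested had a change above 0, beside 51.7% of all genes, with a median of 0.29 against 0.02 over all genes. In spleen 8 of 10 did, beside 44.9%, with a median of 0.33 against -0.05. The spread in these organs was taken from a fit over all organs, and the single summed control is assumed to vary like the other groups. Gdf15 had the largest change of the members in both organs. In lung it stood at 0.557 and 0.611 RPKM in the control libraries and at 3.45 and 2.08 RPKM after cisplatin, a change of 2.18 ± 0.68 with an edgeR adjusted p of 0.32. In spleen it stood at 0.735 and 0.753 RPKM in the controls and at 2.79 and 1.26 RPKM after cisplatin, a change of 1.36 ± 0.65 with an edgeR adjusted p of 1.

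The cisplatin libraries of both organs were thus above the controls for Gdf15, and the error of the change was too wide for a call. In lung the B cell markers were lower after cisplatin, and in spleen the pancreatic acinar markers were higher. Neither was tested for its part in these values. In a fit of lung alone with summed controls, Gdf15 had an edgeR adjusted p of 0.0784 and Sesn2 of 0.352. In a fit of lung alone with each control library counted as a sample, both passed, with edgeR adjusted p-values of 0.0157 and 0.0472. No member passed in spleen in a fit of that organ alone with each library counted. Sesn2 had 3.44 and 3.73 RPKM in the lung controls and 6.18 and 5.78 RPKM after cisplatin. Asns was the member with the lowest change in spleen, from 8.86 and 9.10 RPKM to 7.52 and 4.45 RPKM, or -0.65 ± 0.40. Its edgeR adjusted p was 1. All 17 genes of the XBP1 and ATF6 list had a change of 0 or below in spleen, with a median of -0.39 against -0.05 over all genes, and no gene of the 6 lists was called in lung or spleen.

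**Figure D2:**
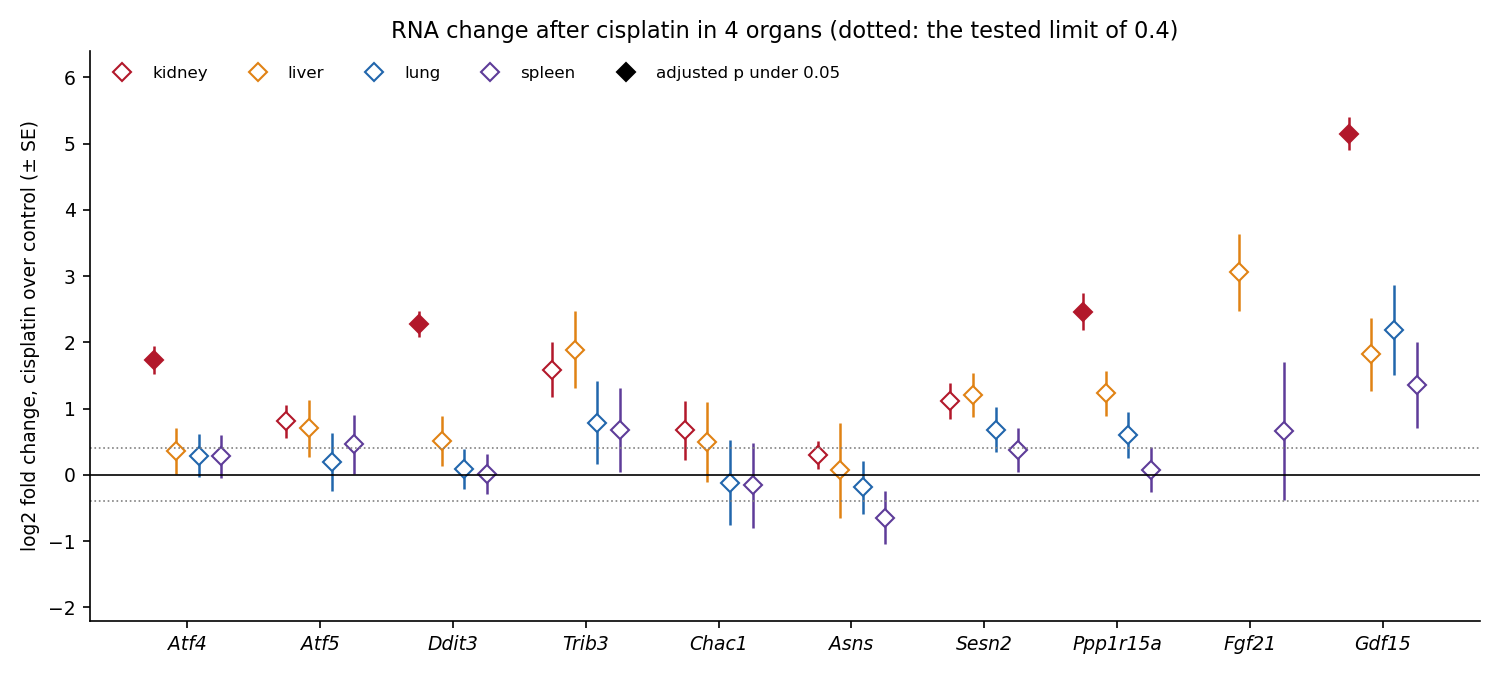
Log2 fold change of RNA after cisplatin (vertical axis, ± SE) of the 10 genes in each organ, with filled symbols for an adjusted p under 0.05 against the limit of 0.4 (dotted lines). Filled symbols are those of Atf4, Ddit3, Ppp1r15a and Gdf15 in kidney, and Fgf21 was not tested in kidney or lung.

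Whether the response differed between organs was tested directly with the organ by treatment terms of the fit over 4 organs. No member passed, beside 0.221% of the 19499 genes tested, and 4 members had an unadjusted p under 0.05, beside 8.25% of all genes. The lowest adjusted p-values among members in edgeR were 0.0777 for Ddit3, 0.139 for Ppp1r15a, 0.152 for Gdf15 and 0.307 for Atf4, which are also the 4 members called in kidney. With the control libraries of lung and spleen counted separately, those 4 passed, although each pair was nearly as alike as repeated samplings of one library. More genes in all passed in that setting than the 0.221% above. On simulated counts with lung as the organ that changed, this F test recovered 0 of 200 genes with a change of 2 on the log2 scale and 194 of 200 with a change of 4. A change in another organ was not simulated.

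Repair on the TS exceeded repair on the NTS in most members. XR-seq levels are reads per 1000000 reads on genes and per 1000 GG of the strand, and TS was compared with NTS within libraries by edgeR. Of the 10 members, 8 had more repair on the TS at an adjusted p under 0.05, beside 60.6% of the 21610 genes tested, and 0 had less, beside 8.84%. The median of log2 TS/NTS was 3.29 over the members and 2.35 over all genes tested. Ppp1r15a had the largest ratio, 5.15 ± 0.81 on the log2 scale, with 5941 reads on the TS and 262 on the NTS over the 8 libraries, so that 95.8% of its reads were on the TS (95% Wilson interval 95.2% to 96.2%). Such an interval covers counting error only, since reads without molecular identifiers are not independent molecules. Ppp1r15a had 0 NTS reads in the first kidney and the first spleen library, and log2 ratios of 3.13 to 5.57 in the other libraries. By the share of reads on the TS, Chac1 and Asns were slightly higher, with 96.4% and 95.9%.

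Asns had a log2 TS/NTS of 4.79 ± 0.68, Sesn2 of 4.70 ± 0.42, Chac1 of 4.38 ± 0.68 and Trib3 of 3.59 ± 0.68. Atf5 and Atf4 followed with 3.0 ± 0.39 and 2.75 ± 0.37, and Gdf15 had the lowest ratio of the 8, with 1.66 ± 0.35. In these 8 genes the TS was above the NTS in 8 of 8 libraries. The edgeR adjusted p of Gdf15 was 0.000655 and became 0.0679 without the second library of each organ. Fgf21 had 706 TS and 103 NTS reads, of which 679 and 95 came from liver, and its log2 ratio of 2.35 ± 1.07 had an edgeR adjusted p of 0.0661.

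**Figure D3:**
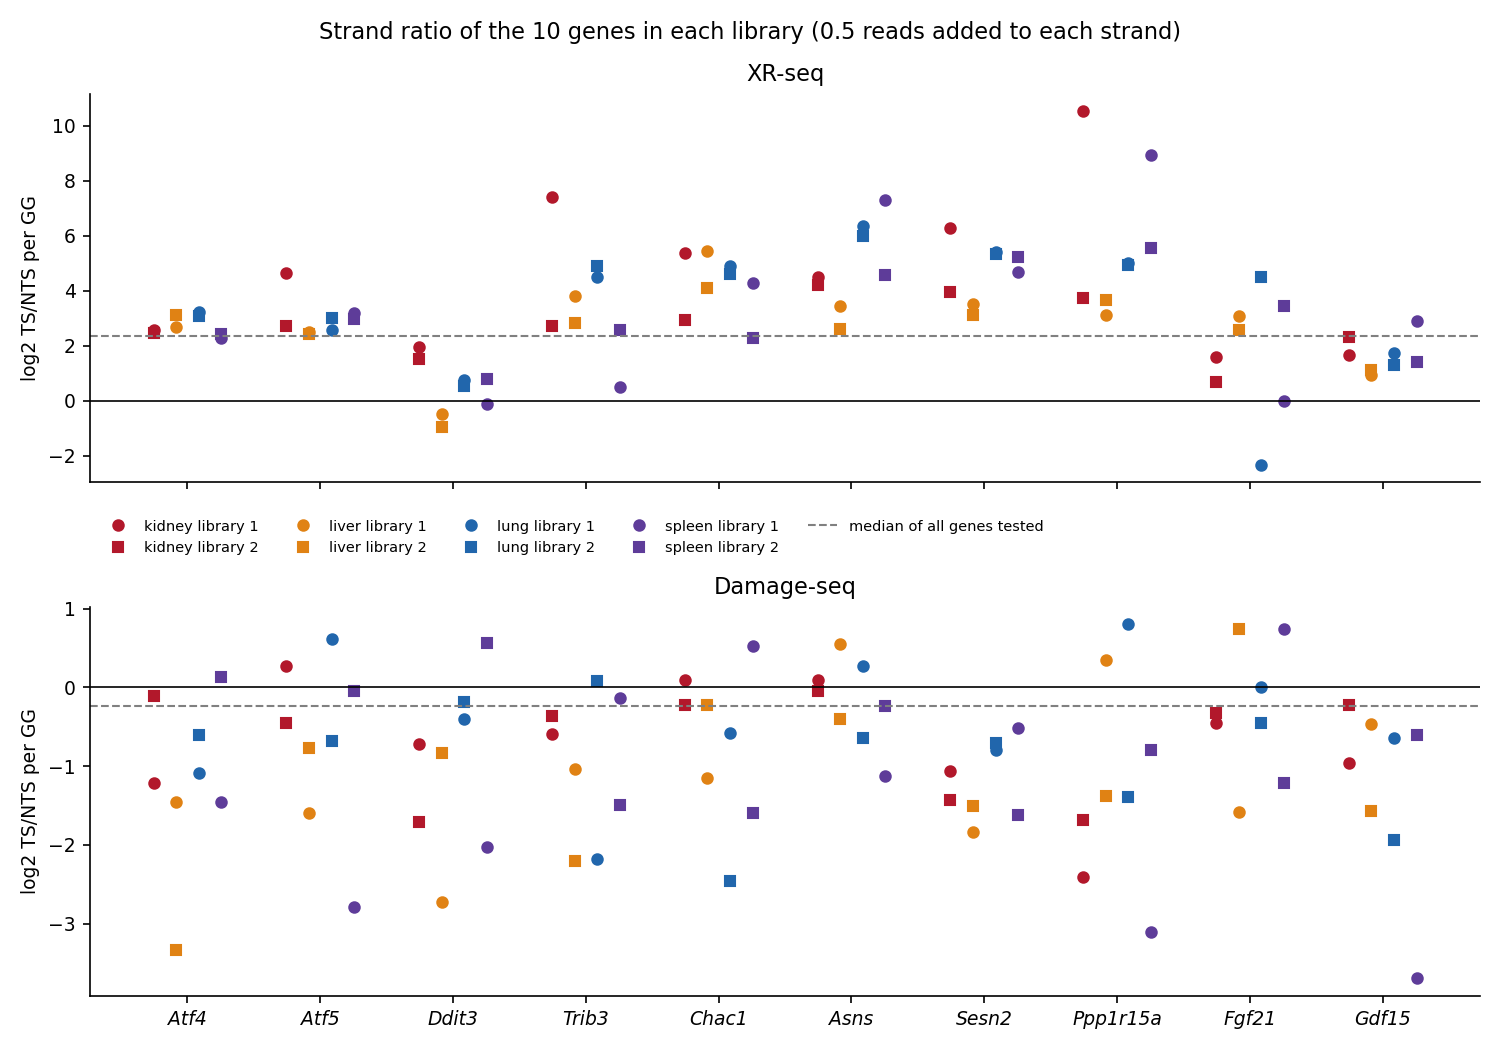
Strand ratio, log2 TS/NTS with reads scaled to GG, of the 10 genes in each XR-seq library (top) and each Damage-seq library (bottom), with 0.5 reads added to each strand and a dashed line at the median of all genes tested (2.35 and -0.23). Ddit3 lies below 0 in both liver XR-seq libraries and above 0 in both kidney libraries, and most Damage-seq points lie below 0.

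Ddit3 differed from the other members in XR-seq. Over 8 libraries it had 5475 TS and 4353 NTS reads, or 55.7% on the TS (95% Wilson interval 54.7% to 56.7%), and its log2 ratio of 0.52 ± 0.34 had an edgeR adjusted p of 0.193. The ratio depended on the organ, with an adjusted p of 0.0154 in edgeR for the strand by organ terms, a test chosen after seeing the data that 21.8% of all genes tested passed. Ddit3 was the only member to pass that test in XR-seq, and no member passed it in Damage-seq, where 9.47% of genes did and the lowest adjusted p of a member was 0.442 in edgeR. In kidney the log2 ratio was 1.97 and 1.54 in the 2 libraries and in lung 0.77 and 0.56. In spleen it was -0.10 and 0.79, and in liver -0.46 and -0.93. The fitted values were 1.75 ± 0.30 in kidney, with an edgeR adjusted p of 0.000723, and -0.69 ± 0.29 in liver, with an edgeR adjusted p of 0.0743. Both strands contributed, since the TS level was 75.7 and 82.7 in kidney against 34.9 and 26.9 in liver, and the NTS level was 19.3 and 28.5 in kidney against 47.9 and 51.2 in liver.

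Ddit3 lies at chr10:127290774-127296288 on the plus strand. It shares 68 bp, or 1.23% of its span, with Mars, the methionyl-tRNA synthetase gene on the opposite strand. A read in the shared bases on the NTS of Ddit3 is on the TS of Mars. The part of such reads in the strand ratio of Ddit3 was not tested. Over the whole of Mars, the XR-seq TS level was 65.2 and 64.7 in kidney and 32.6 and 33.3 in liver. The annotation also holds a second gene entry named Ddit3 on the same strand, which shares 53% of the span and 6.13% of the exons, and Gm4189 on the opposite strand, which shares 15 bp. Of the other members, Atf5 shares 13% of its span with Nup62, Ppp1r15a shares 21.4% with Tulp2, and Sesn2 shares 33% with the non-coding gene Gm12981 on the same strand. Apart from the second Ddit3 entry, the shared exonic part was at most 4.11% of the exons of a member with any of these genes. Restricted to genes that overlap no other annotated gene, the strand test kept Atf4, Trib3, Chac1, Asns and Gdf15 among the members.

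Repair of the TS differed between organs in all 10 members, beside 55.6% of the 20689 genes tested (edgeR F test over 4 organs). In 6 members, Atf4, Atf5, Ddit3, Sesn2, Ppp1r15a and Gdf15, both kidney libraries lay above the 6 libraries of the other organs, beside 15.3% of all genes tested. In 3 members, Trib3, Chac1 and Fgf21, both liver libraries lay above the rest, beside 15.4%. In 4 members, Ddit3, Asns, Sesn2 and Ppp1r15a, both liver libraries were the lowest, beside 27%. With one library left out at a time 8 to 10 members passed the F test, and Atf5 failed it in 6 of the 8 cases, Atf4 without the first kidney or the second spleen library and Ddit3 without the second liver library. Each organ was then compared with the mean of the other 3 on the TMM scale, a test chosen after seeing the data. Of the 10 members, 6 were higher in kidney and 1 was lower, beside 14.9% and 16.4% of all genes. The 6 were Atf4, Ddit3, Asns, Sesn2, Ppp1r15a and Gdf15, and the lower one was Chac1. On this scale Atf5 was not called higher in kidney, with a log2 difference of 0.21 ± 0.19 and an edgeR adjusted p of 0.465. In liver 5 were higher and 4 lower, beside 27% and 21.3% of all genes, in lung 2 and 1, beside 14.6% and 15.2%, and in spleen 0 and 3, beside 13.4% and 13.3%.

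The 4 genes whose RNA rose in kidney were all among those with more TS repair in kidney. Gdf15 had a kidney TS level of 74.7 and 94.7, while liver stood at 48.9 and 58.4. Its lung level was 22.9 and 21.2, and its spleen level 24.7 and 19.7. Kidney was highest and liver next, with a log2 difference from the mean of the other organs of 1.32 ± 0.21 in kidney (edgeR adjusted p 0.000273) and 0.95 ± 0.21 in liver (edgeR adjusted p 0.00216). Lung and spleen overlapped and were both lower than the mean of the other organs. Atf4 had a TS level of 133 and 77.6 in kidney, with the other organs between 39.9 and 51.3. Its kidney libraries were far apart, and its difference of 0.98 ± 0.25 had an edgeR adjusted p of 0.00784.

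Ppp1r15a had a TS level of 132 and 105 in kidney. Lung stood at 79.5 and 74.6, spleen at 75.5 and 83.1 and liver at 38.8 and 31.5. Kidney was above the rest by 0.79 ± 0.18 and liver below it by 1.04 ± 0.20 on the log2 scale, lung and spleen overlapped, and the edgeR adjusted p-values were 0.00367 and 0.000589. Ddit3 followed the same order of kidney and liver, with a kidney difference of 0.61 ± 0.18 and an edgeR adjusted p of 0.0186. No XR-seq library without cisplatin was analysed here, so that these levels describe organs after cisplatin and not a change.

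Fgf21 had the sharpest contrast of the set. In liver its TS level was 50.4 and 51.2. Elsewhere it was 0.385 and 2.54 in kidney, 0 and 1.83 in lung and 0 and 1.02 in spleen, where 0 reads allow levels of up to 0.356 in lung and 2.0 in spleen. Its RNA was also highest in liver, where it stood at 12.1 and 36.6 RPKM after cisplatin, against 0.418 RPKM or less in every other cisplatin library. Among the other organs the order of RNA and of TS level was not the same, and these values rest on few reads. The log2 difference of liver from the other organs was 5.98 ± 0.88 with an edgeR adjusted p of 7.4e-05.

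Chac1 and Trib3 had the most TS repair in liver and little in spleen. Chac1 had a TS level of 46.0 and 53.1 in liver and 38.4 and 40.9 in lung, against 4.61 and 15.2 in kidney and 3.65 and 4.90 in spleen. Liver and lung were above kidney and spleen in every library, and kidney and spleen overlapped. Its RNA level did not follow these differences in size, with 1.26 and 1.85 RPKM in cisplatin kidney, 1.88 and 1.27 RPKM in lung and 3.70 and 3.51 RPKM in liver. Trib3 had a liver TS level of 62.9 and 53.6, with kidney at 46.3 and 38.8 and lung at 35.5 and 39.0. The spleen libraries of Trib3 stood at 5.38 and 8.75, a difference of -2.66 ± 0.26 for spleen with an edgeR adjusted p of 3.67e-06. Kidney and lung overlapped for Trib3. In spleen its RNA was also low, at 0.905 and 0.735 RPKM after cisplatin.

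Asns, Sesn2 and Atf5 also had their highest TS repair in a kidney library. Asns had a kidney TS level of 23.4 and 19.6, with lung at 15.6 and 22.9. Spleen followed at 7.29 and 7.65 and liver at 3.75 and 3.92, the organ in which its RNA was lowest. Kidney and lung overlapped. The Sesn2 level was 71.3 to 73.8 in kidney, 63.1 to 66.2 in lung, 50.8 to 53.2 in spleen and 35.3 to 35.6 in liver, so that no neighbouring organs overlapped. Atf5 had a kidney level of 55.8 and 52.4 and a liver level of 49.7 and 50.3, whereas lung stood at 41.5 and 33.6 and spleen at 40.5 and 32.8. The high RNA level of Atf5 in liver was not matched by a TS level of that order. On the TMM scale Atf5 was above the mean of the other organs in liver, by 0.56 ± 0.19 (edgeR adjusted p 0.0252). In kidney its difference was 0.21 ± 0.19 (edgeR adjusted p 0.465). On the NTS only Ddit3 differed between organs among the members, beside 25% of all genes, with an edgeR adjusted p of 0.00982. With single libraries left out, the members that passed on the NTS changed, and so did the number of all genes that passed.

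**Figure D4:**
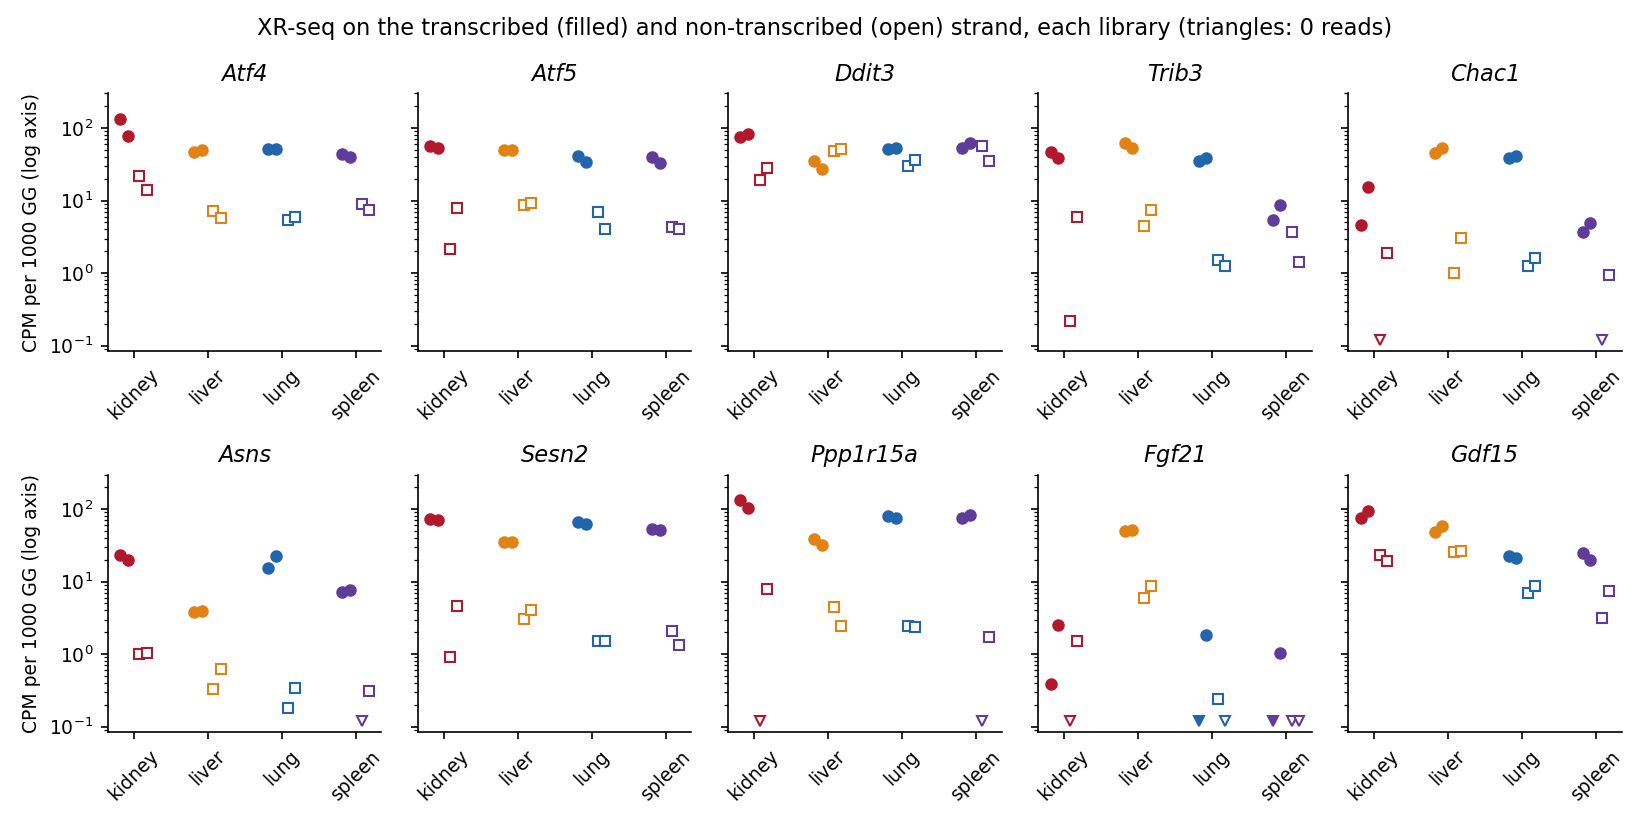
XR-seq reads per 1000000 reads on genes and per 1000 GG (log axis) of the 10 genes on the TS (filled) and NTS (open) in each library of the 4 organs, with triangles for 0 reads. Fgf21 stands at 50.4 and 51.2 on the TS in liver and at 2.54 or below in the other organs, and the open symbols of Ddit3 lie above the filled ones in liver.

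Remaining damage was lower on the TS than on the NTS in Sesn2, Ppp1r15a, Gdf15, Ddit3 and Trib3. Of the 10 members, these 5 were lower on the TS at an adjusted p under 0.05 in edgeR, beside 33.7% of the 22939 genes tested, and 0 were higher, beside 1.75%. The median of log2 TS/NTS over the 10 members was -0.90 against -0.23 over all genes tested. Sesn2, the longest member with 18470 bp, had 265 reads on the TS and 601 on the NTS, or 30.6% on the TS (95% Wilson interval 27.6% to 33.7%). Its log2 ratio was -1.17 ± 0.16 with an edgeR adjusted p of 4.03e-06, and the TS was lower in 8 of 8 libraries. Ppp1r15a had 46 and 124 reads and a log2 ratio of -1.23 ± 0.37, Gdf15 59 and 111 reads and -1.0 ± 0.32, Ddit3 75 and 153 reads and -0.94 ± 0.29, and Trib3 142 and 248 reads and -0.86 ± 0.24. Their edgeR adjusted p-values were between 0.00579 and 0.0158. Without the first library of each organ Sesn2 and Ppp1r15a passed, and without the second Trib3 and Sesn2 passed.

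Atf4 had 31 TS and 60 NTS reads in all Damage-seq libraries together, and its log2 ratio of -0.96 ± 0.43 had an edgeR adjusted p of 0.0862. Chac1, Atf5, Fgf21 and Asns had ratios of -0.67 ± 0.32, -0.48 ± 0.25, -0.37 ± 0.41 and -0.12 ± 0.18, none of which passed. These 4 genes had 34 to 291 reads per strand, and the power to detect differences of this size was not simulated. Ddit3, whose repair was not strand-biased over all libraries, had less damage on the TS in 7 of 8 libraries.

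Damage on the TS differed between organs in 0 of the 10 members by the edgeR F test, beside 28.3% of the 21974 genes tested, and 4 members had an unadjusted p under 0.05, beside 39% of all genes. In the comparison of each organ with the mean of the others, 3 members were higher in kidney, Atf4, Atf5 and Chac1, with edgeR adjusted p-values of 0.0392, 0.0232 and 0.0142, beside 14.9% of all genes. Sesn2 was lower in liver, with an edgeR adjusted p of 0.0465, beside 7.54%. Without the second lung library 3 members passed the F test, Atf4, Atf5 and Trib3, and 1 passed without the second liver (Atf5), the first lung (Chac1) or the second spleen library (Atf5). On the NTS 3 members differed, Sesn2, Ppp1r15a and Ddit3, beside 16.5% of all genes. In each of them the level was higher in kidney than the mean of the other organs, beside 14.4% of all genes. Ppp1r15a had 41 and 35 NTS reads in kidney, a level of 20.4 ± 0.636 (SD, n = 2), and a level between 3.25 and 12.1 elsewhere, a log2 difference of 1.43 ± 0.38 with an edgeR adjusted p of 0.00384. Ddit3 had 14.5 and 22 in kidney and between 2.28 and 9.64 elsewhere, and Sesn2 had 15.1 and 18.9 in kidney and between 8.65 and 15.3 elsewhere. The kidney libraries were above all others for Ppp1r15a and Ddit3 and overlapped with 1 spleen library for Sesn2. Without the second kidney library none of the 3 passed, and without the first kidney library or the first liver library Sesn2 alone passed.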

How the data were processed

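All values start from the counts that the authors deposited, whole numbers of reads per gene without normalization. Per the labels and the study's methods, Damage-seq and XR-seq reads were trimmed with cutadapt, aligned to mm10 with BWA, freed of duplicates with Picard, kept with GG at the adduct position and counted per strand of each gene, and poly-A RNA-seq reads, from an unstranded kit, were aligned with STAR and counted with featureCounts. Tool versions are not given in the sources used here. An unstranded count cannot tell a gene from an overlapping antisense gene. The 1 line without an identifier in each Damage-seq and XR-seq file was left out. Depths are given in the report, and Damage-seq libraries had the fewest reads on genes.

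The members and all gene and marker lists were chosen with earlier results of these data known. The genes named are the 10 members, up to 4 called genes of each list and organ with the largest change, Cdkn1a as a check of treatment, and marker genes by their sums. The Ddit3 neighbour Mars and other overlapping genes, the called genes Cebpb, Sqstm1, Ddit4 and Nfe2l2, and Bbc3 and Hspa5 were named after their values were seen.

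The tests on RNA counts used edgeR 4.0.16 under R 4.3.3 (TMM, default filter, quasi-likelihood fit, test against a log2 fold change of 0.4, Benjamini-Hochberg adjusted p over all genes tested), in kidney and liver by organ and in lung and spleen in a fit over 14 samples. RPKM used TMM-scaled library sizes and the exon length of GENCODE M21. TS and NTS reads were compared in one edgeR fit per assay with the library as a block and an offset for library reads and GG, for genes with at least 20 reads and 10 GG per strand. Organs were compared by F tests. For kidney and liver RNA and for the comparisons of organs in XR-seq and Damage-seq, the tests used the spread between 2 libraries per group. For lung and spleen RNA and the organ by treatment test it came from the fit over 14 samples, with each summed control as 1 sample. The strand test used the spread of the strand difference over all libraries of the assay. Tests were checked on simulated data with 200 changed genes at a log2 change of 2, where edgeR recovered 93% with the spread of kidney, 61% with that of liver and 70.5% in the fit over organs for lung. DESeq2 1.42.0, other scalings, filters and offsets, and left-out libraries were tried as alternatives. The authors' batch correction was not repeated, since no batch is named in the sources used here.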

Additional observations from a re-analysis of the deposited data

Results flagged for a closer look

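The log2 TS/NTS of Ddit3 in XR-seq differed between organs, with an adjusted p of 0.0154 for the strand by organ terms in edgeR. It was above 0 in both kidney libraries and below 0 in both liver libraries.

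The RNA of Asns differed in opposite directions in 2 organs. In kidney both cisplatin libraries lay above both controls, beside 27.8% of all genes tested. In spleen both cisplatin libraries lay below both control libraries, which are counted as 1 sample here, and the share of all genes was not computed. The log2 fold change of Asns was 0.3 in kidney and -0.65 in spleen. The test of the difference, the organ by treatment F test of edgeR over 4 organs, gave an adjusted p of 0.967, and neither change was called on its own.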

How the results depend on the processing

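The median change of all genes moved by less than 0.1 between the TMM and the DESeq2 scaling in each organ. Without a filter on low counts 1896 genes were called in kidney, 155 in liver, 365 in lung, 79 in spleen and 344 for the organ by treatment terms, with 6 members in kidney (Trib3 and Sesn2 in addition), 1 in liver (Fgf21), 1 in lung (Gdf15) and 3 in the organ by treatment test (Ddit3, Ppp1r15a and Gdf15), and the log2 change of Ddit3 in spleen became -0.01. A test against 0 in place of 0.4 called 1711 genes in kidney and 135 in lung, and DESeq2 called 188 in liver with 1 member, 147 in lung and 50 in spleen. One fit over the organs called 647 genes in liver, and the fit of lung alone with summed controls called 381. With each library counted as a replicate, 1606 genes and 2 members were called in lung, 62 genes in spleen, and 622 genes and 4 members in the organ by treatment test. Restricted to genes that overlap no other gene, the strand test called 6703 genes and 5 members in XR-seq and 3466 genes and 2 members in Damage-seq. Without a minimum of reads 2 members differed between organs on the XR-seq NTS. The cause of these differences was not tested, except that fewer genes entered the strand test without overlapping genes.

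The replicate numbers were set as a block to check for pairing. Deviations of libraries with the same number correlated at 0.0591 in lung, 0.331 in spleen, 0.39 in liver and 0.476 in kidney, but with 2 numbers per group and no source for the pairing the libraries share only a number. With the replicate block 3182 genes and 7 members were called in kidney and 1015 genes and 5 members in liver, and with each library counted as a replicate in the blocked fit 1914 genes and 1 member in lung (Gdf15) and 172 genes in spleen.

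With one library left out at a time, kidney had 123 to 2005 genes and 3 to 7 members called, liver 22 to 1840 genes and 0 to 5 members, lung 0 to 76 genes and spleen 24 to 101 genes. The strand test of Damage-seq had 4709 to 5985 genes and 2 members in each case. Between organs the XR-seq NTS gave 3207 to 9164 genes and 1 to 6 members, the Damage-seq NTS 1066 to 4247 genes and 0 to 4 members, and the Damage-seq TS 0 to 3 members. Leaving out a replicate number in all organs would leave no residual degrees of freedom there, so that single libraries were left out, a choice made after seeing the data. The log2 changes that turned direction were those of Chac1 in liver (-0.11 to 1.63), Asns in liver (-0.55 to 0.51, with -0.27 in a second case), Ddit3 in lung (-0.04 to 0.22), Chac1 in lung (-0.42 to 0.15), and in spleen Ddit3 (-0.06 to 0.19), Ppp1r15a (-0.12 to 0.26) and Chac1 (-0.33 to 0.18), and the log2 TS/NTS of Asns in Damage-seq (-0.35 to 0.11). None of these was called in the fits of the report. Changes of members in kidney and log2 TS/NTS in XR-seq kept their direction in every alternative run. Damage-seq had the fewest reads, and its power for strand differences below 2 on the log2 scale was not simulated.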
